A study of Mus musculus with 15 samples.

Results

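These 157 genes had group means that were alike in undifferentiated neural stem cells and 12 h after the growth factors were withdrawn, and lower at 24 h. They were chosen from their values: on the log2 scale the 12 h mean had to lie within 0.3 of the undifferentiated mean, and the 24 h mean at least 0.6 below the 12 h mean. Each gene was read through its brightest probe set with a single symbol, and 7909 of 12393 genes on the array had a mean level above the 40th percentile of probe sets (0.51 on the log2 scale). Of the 7909, 4883 met the limit at 12 h, 401 met the limit on the later difference, and 157 met both, so 39.2% of the genes with a later drop of that size had a flat mean at 12 h.

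Total RNA was hybridised to an Affymetrix mouse expression array, 1 array per sample. The cells were neural stem cells of the subventricular zone, the lining of the lateral ventricle, from female C57Bl6/J mice aged 6 months, grown as neurospheres and used at passages 5 to 7. Undifferentiated cells (5 arrays) were kept with the growth factors bFGF and EGF, while the cells taken at 12 h (5 arrays) and at 24 h (5 arrays) were held without these factors, in 5% serum on poly-D-lysine. Loss of the factors, serum and the coating came together, so their effects cannot be told apart, and the labels do not state whether a group's 5 samples were separate cultures. In bulk RNA, fewer cells of a type and less RNA per cell cannot be told apart.

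Growth factor signalling through receptor tyrosine kinases keeps neural stem cells dividing, and its loss lets them leave the cell cycle and begin to form glia and neurons. Stem cells of this niche also make ligands, matrix proteins and adhesion receptors that hold them in place and act on their neighbours.

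The title codes of the arrays end in 3 suffixes, called A, B and C here, which hold 2, 2 and 1 undifferentiated, 12 h and 24 h arrays (A), 2 of each (B), and 1, 1 and 2 (C). For 13 of the 15 samples the code in the title differs from that of the array file, and 8 samples would change group; groups are those of the titles. At 12 h, replicates 3 and 4, both of suffix B, were the closest pair of arrays within any group (SD of their difference 0.150, next pair 0.277), and whether they are separate RNAs was not tested. Of the neural stem and progenitor genes on the array 15 of 16 were above the level filter, against 0 of 15 microglial, 0 of 10 endothelial, 2 of 11 pericyte and fibroblast and 3 of 5 ependymal markers. Other neural lists passed too, with 16 of 16 astrocyte, 8 of 8 oligodendrocyte lineage, 11 of 12 myelin and 11 of 15 neuronal genes. The filter therefore does not set stem cells apart from other neural cells.

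Promoter sequence is a property of the members that the choice did not use. RefSeq promoter sequences of build GRCm38.p6, running from 250 bases before to 50 after a transcription start, were held for 124 of the 157 members, and 93 had a single one. Vertebrate promoters fall into CpG-rich ones, typical of broadly used genes, and CpG-poor ones, typical of genes restricted to some cells. The promoters of Pcp4l1 and Sema3a are printed as CpG-poor examples and those of Chst2 and Kitl as CpG-rich ones, each 5′ to 3′ on the gene's strand with every CpG dinucleotide in capitals. Pcp4l1 lies on the minus strand at chr1:171196219-171196518, Sema3a on the plus strand at chr5:13396534-13396833, Chst2 on the minus strand at chr9:95407221-95407520 and Kitl on the plus strand at chr10:100015571-100015870. The only promoter held for Sema3a lies inside the gene, which spans chr5:13124822-13603485, and not at its 5′ end. Its CpG ratio describes that internal start alone. Whether other promoters held are internal was not tested.
Pcp4l1: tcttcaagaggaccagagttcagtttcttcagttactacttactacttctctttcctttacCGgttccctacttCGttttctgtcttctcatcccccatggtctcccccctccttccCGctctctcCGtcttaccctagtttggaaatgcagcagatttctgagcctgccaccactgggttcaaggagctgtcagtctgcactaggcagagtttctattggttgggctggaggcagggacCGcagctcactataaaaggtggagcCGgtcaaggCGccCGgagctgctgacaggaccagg
Sema3a: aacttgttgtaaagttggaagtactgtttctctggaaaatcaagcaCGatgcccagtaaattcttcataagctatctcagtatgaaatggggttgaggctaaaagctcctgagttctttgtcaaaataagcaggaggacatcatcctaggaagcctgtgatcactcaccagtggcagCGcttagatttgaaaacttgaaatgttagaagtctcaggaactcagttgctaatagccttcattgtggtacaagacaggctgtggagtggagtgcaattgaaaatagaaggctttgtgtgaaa
Chst2: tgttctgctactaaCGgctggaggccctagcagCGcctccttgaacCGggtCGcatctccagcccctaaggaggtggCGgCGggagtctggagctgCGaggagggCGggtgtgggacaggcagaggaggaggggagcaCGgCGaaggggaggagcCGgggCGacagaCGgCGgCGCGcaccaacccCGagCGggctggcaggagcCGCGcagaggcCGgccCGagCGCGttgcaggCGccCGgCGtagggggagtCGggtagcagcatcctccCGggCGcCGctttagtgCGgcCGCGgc
Kitl: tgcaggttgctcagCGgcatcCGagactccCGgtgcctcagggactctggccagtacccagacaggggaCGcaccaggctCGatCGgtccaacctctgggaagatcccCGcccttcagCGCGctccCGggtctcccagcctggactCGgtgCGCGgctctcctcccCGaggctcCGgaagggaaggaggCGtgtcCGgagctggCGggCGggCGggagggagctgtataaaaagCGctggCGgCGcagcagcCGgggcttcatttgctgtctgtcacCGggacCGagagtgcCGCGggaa

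Capitals mark 8 CpG in Pcp4l1 and 2 in Sema3a, with observed-to-expected ratios of 0.381 and 0.162, against 34 in Chst2 and 28 in Kitl, with ratios of 0.885 and 0.794. Among the 93 members with a single promoter, 52 (55.9%) had a ratio above 0.6, compared with 81.6% of 5077 tested genes with a single promoter. Other tested genes with a flat 12 h mean had 83.8% (of 3066), and other genes with a later drop past the limit had 71.0% (of 145). The median ratio was 0.645 in the members and 0.808 in the tested genes, while the GC content was the same, with a median of 61.7% in both. With every promoter of genes that have several counted, the shares were 51.2% of 170 member promoters and 73.7% of 8480 promoters of tested genes. All genes of the table, used in these cells or not, had 35.7% (of 22862 promoters), below the members' share. No test was made of these shares, and mean level, which differs between the sets (median 2.73 in the members and 3.38 in the tested genes, log2), was not matched.

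The ETS motif CCGGAAG, on either strand, occurred in 8 member promoters (8.6%), 8.97% of those of the other later fallers and 21.6% of those of tested genes. All genes of the table had 9.12%. With every promoter of genes that have several counted, the shares were 11.8% in members, 7.95% in the other later fallers and 18.5% in tested genes. The motif itself holds a CpG, and its shares were not adjusted for the CpG ratio. ETS factors are transcription factors that include the effectors of growth factor signalling, but a match describes letters only. The 8 members with it were AI413582, Calu, Cend1, Fastk, Kitl, Pdia6, Plod3 and Tnfrsf1a, and in Kitl it lies from 77 to 71 bases before the start. The plot of promoter shares sets these values side by side.

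**Figure D1:**
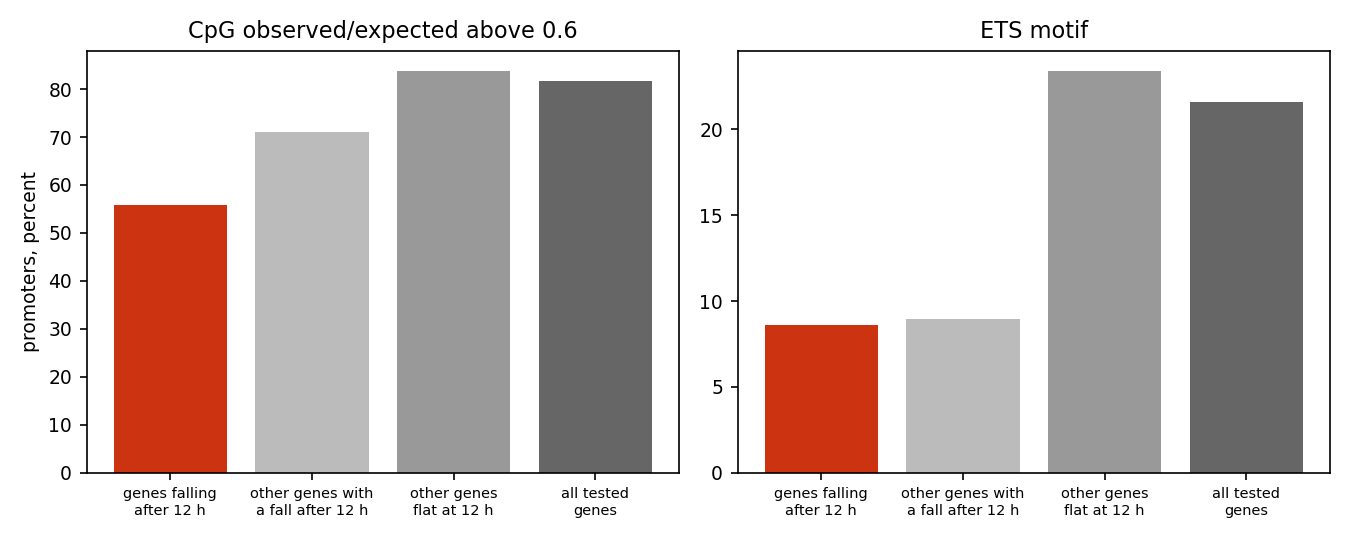
Share of promoters, in percent, with a CpG observed-to-expected ratio above 0.6 (left) and with the ETS motif (right), over genes with a single promoter: 93 members, 145 other genes with a later drop past the limit, 3066 other genes with a flat 12 h mean and 5077 tested genes. The members have the lowest CpG bar, 55.9% against 81.6% of tested genes, and their ETS share of 8.6% is near that of the other later fallers, 8.97%.

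Of 17 motifs searched on both strands, the amino acid response motif bound by ATF4, TGATGNAA, was in 5 member promoters (5.38%), against 1.91% in tested genes and 4.18% in all genes of the table. It is shown for Asns, asparagine synthetase, whose induction by ATF4 under amino acid shortage is well studied, with the match in capitals. This promoter lies on the minus strand at chr6:7693160-7693459, and the match runs from 23 to 16 bases before the start.
Asns: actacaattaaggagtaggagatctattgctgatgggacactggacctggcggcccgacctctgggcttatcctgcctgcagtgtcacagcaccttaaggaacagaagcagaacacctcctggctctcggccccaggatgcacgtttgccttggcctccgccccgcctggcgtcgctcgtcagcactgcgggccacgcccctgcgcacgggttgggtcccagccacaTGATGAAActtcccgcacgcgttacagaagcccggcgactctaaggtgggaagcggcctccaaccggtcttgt

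The other 4 members with the letters were Fgl2, Ifitm3, Pck2 and Ptgr1, and Pck2 encodes a mitochondrial enzyme that makes phosphoenolpyruvate. The remaining motifs gave member shares, each followed by that of the tested genes, of 6.45% and 3.82% for AP-1 (TGANTCA), 1.08% and 3.53% for the cAMP response element (TGACGTCA), 7.53% and 10.8% for the MYC-type E-box (CACGTG), 1.08% and 1.28% for E2F (TTTGGCGC) and 71.0% and 70.0% for the SP1 box (GGGCGG). They were 40.9% and 40.4% for the NFY box (CCAAT), 9.68% and 6.44% for the TATA box (TATAAA), 0 of 93 and 4.45% for NRF1 (GCGCATGCG), 1.08% and 0.965% for the sterol element (TCACNCCAC) and 1.08% and 2.34% for FOXO (GTAAACA). For TEAD (GGAATG) they were 8.6% and 11.7%, for RBPJ (GTGGGAA) 5.38% and 5.5%, for YY1 (AAGATGGC) 2.15% and 5.99%, for the heat shock element (TTCNNGAA) 3.23% and 6.17% and for the hypoxia element (ACGTGC) 6.45% and 8.65%. The E-box and the hypoxia element share the letters ACGTG, and for the rarer motifs a change of 1 promoter moves the members' share by 1.08 percentage points.

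The flat mean at 12 h was an average of arrays on both sides of it. Relative to each gene's undifferentiated mean, the median over the 157 genes was -0.06, -0.10, -0.07, 0.15 and 0.08 on the 5 undifferentiated arrays, -0.19, -0.23, 0.44, 0.32 and -0.58 on the 12 h arrays and -0.71, -0.89, -0.62, -0.90 and -1.08 on the 24 h arrays, in replicate order. Replicates 3 and 4 at 12 h stood above all undifferentiated arrays, and the other 12 h arrays stood below them all. All 24 h arrays were lower than all 12 h arrays in this median. The mean of the array medians was -0.0016 with an SD of 0.11 in undifferentiated cells, -0.05 with an SD of 0.42 at 12 h and -0.84 with an SD of 0.18 at 24 h (5 arrays each).

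**Figure D2:**
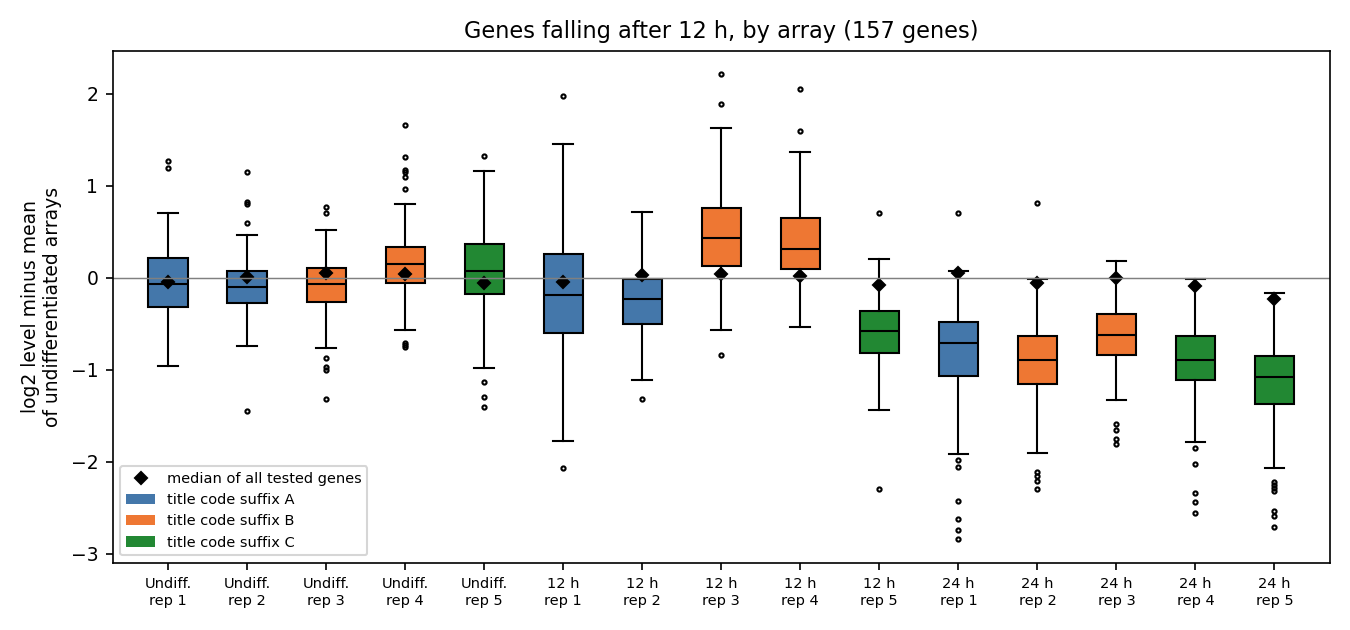
Log2 level of the 157 genes on each array, less the gene's mean over the undifferentiated arrays, with boxes for the quartiles and median, whiskers to 1.5 times the box height, dots beyond them, and colours for the title code suffix; diamonds are medians over all 7909 tested genes. The 12 h boxes lie on both sides of 0, from a median of -0.58 in replicate 5 to 0.44 in replicate 3, and all 24 h medians lie at -0.62 or lower.

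The label of a drop only after 12 h therefore held for the group means and not for the single arrays. In 12 h replicate 5, 151 of the 157 genes were below their undifferentiated mean, and 103 (65.6%) were below all 5 undifferentiated arrays, compared with 32.3% of all tested genes and 70.1% of the 244 other genes with a later drop past the limit. In 12 h replicates 3 and 4 together, 123 genes (78.3%) were above that mean on both arrays, compared with 46.2% of all tested genes and 54.1% of the other later fallers. The median SD of the members was 0.32 over the undifferentiated arrays, 0.52 over the 12 h arrays and 0.29 over the 24 h arrays. Over the 12 h arrays the same figure was 0.70 for the other later fallers, above that of the members, 0.28 for all tested genes and 0.22 for the other genes with a flat 12 h mean. With 12 h replicates 3 and 4 left out, the median of the 12 h minus undifferentiated difference over the 157 genes was -0.31, in place of -0.05. The median of the 24 h minus 12 h difference was then -0.53, in place of -0.77, and 62 genes met both limits, 42 of them members.

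The suffixes gave the same division. Within suffix A the median of the members' 12 h minus undifferentiated difference was -0.11, within B 0.36 and within C -0.72, where undifferentiated and 12 h cells had 1 array each. Only 13 of the 157 genes lay within 0.3 of their undifferentiated level in all 3 suffixes, and 114 were higher at 12 h in B and lower in C, which was so for 1518 (19.2%) of all tested genes. The 24 h minus 12 h difference had a median of -0.55 within A, -1.12 within B and -0.39 within C, and 147 of the 157 were lower at 24 h within each suffix, as were 1823 of the 7909 tested genes. The counts of members use the arrays that chose the genes. Read instead in a suffix that had no part in the choice, the 272 genes chosen on B and C had a median of -0.26 within A (213 lower, where 39.7% of tested genes were), the 86 chosen on A and C had -0.54 within B (73 lower, where 55.9% were), and the 165 chosen on A and B had -0.34 within C (153 lower, where 63.4% were). The flat 12 h level did not carry over in the same way: those 3 sets of genes had 12 h minus undifferentiated medians of -0.38 within A, -0.14 within B and -0.80 within C, where the medians over all tested genes were 0.0045, -0.0094 and -0.0090. In 4 sets of 3 arrays the title codes run consecutively through undifferentiated, 12 h and 24 h cells, 1 set in A, 2 in B and 1 in C. The median 24 h minus 12 h difference of the members was -0.49, -1.31, -0.93 and -0.51 in these sets, with 149, 156, 156 and 153 of the 157 lower at 24 h, compared with 45.7%, 59.5%, 52.6% and 67.5% of tested genes. The arrays of these sets also had a part in the choice, so the counts are a description and not separate evidence.

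**Figure D3:**
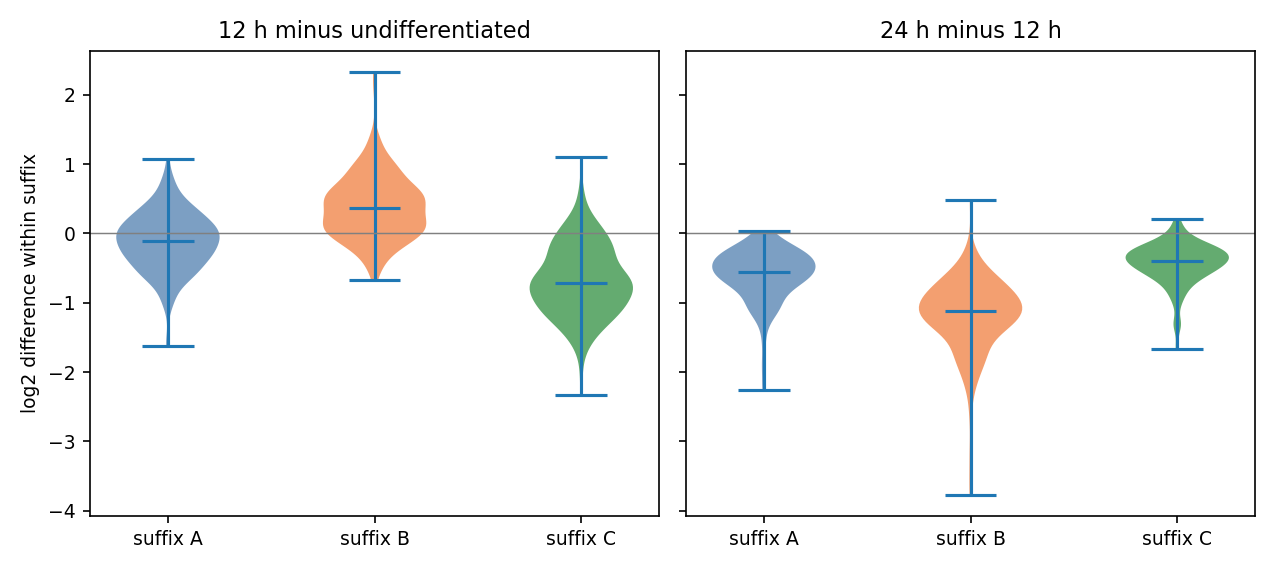
Log2 differences of the 157 genes within each title code suffix, 12 h minus undifferentiated (left) and 24 h minus 12 h (right); the shape is the distribution over genes and the bars mark the lowest, median and highest gene. At 12 h the medians are -0.11, 0.36 and -0.72 for suffixes A, B and C, and from 12 h to 24 h all 3 lie below 0, at -0.55, -1.12 and -0.39.

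The 13 genes with a flat 12 h level in every suffix were Cdh4, Magt1, Ptgr1, Alas1, Srebf2, Chrdl1, Pck2, Ltbr, Alg9, Rpn2, Thbs3, Rtn4ip1 and Calu. Among them are the ER glycosylation genes Magt1, Alg9 and Rpn2, and Alas1, the first enzyme of haem synthesis; they were named after their values were seen. Genes of the ERK response, which report growth factor signalling, also had 12 h replicates 3 and 4 above the other 12 h arrays and replicate 5 lowest: the median of 10 genes of that fixed list, relative to undifferentiated cells, was -1.55, -1.48, -0.04, 0.07 and -2.08 in replicates 1 to 5, and from -2.92 to -1.47 at 24 h. The ratio of 3' to 5' probe signal for beta-actin, which rises as RNA degrades or labelling falls short, ran from 1.63 to 2.22 in undifferentiated cells, was 2.27, 2.31, 2.21, 2.42 and 2.59 on the 12 h arrays in the same order, and ran from 2.23 to 3.21 at 24 h. Markers of more mature or other cells also moved: all 11 tested myelin genes were higher at 24 h than in undifferentiated cells, with a median 24 h minus 12 h difference of 1.58. Foxj1, the regulator of motile cilia in ependymal cells, had means of 2.38 in undifferentiated cells, 3.34 at 12 h and 3.90 at 24 h. Another ependymal marker, Rarres2, went down, with means of 1.496, 1.056 and 0.847 in that order. Of the 3 ependymal markers tested, 2 were called higher and 1 lower at 24 h than in undifferentiated cells. The summed level of the 5 ependymal markers ran from 3.41 to 3.61 in undifferentiated cells, 3.53 to 4.28 at 12 h and 3.74 to 4.68 at 24 h (log2). Pdgfrb, a receptor used as a pericyte marker, had means of -0.24 in undifferentiated cells, 0.43 at 12 h and 1.72 at 24 h and was called higher at 24 h than at 12 h, while the 11 pericyte and fibroblast markers summed to 3.94 to 4.38, 3.49 to 4.21 and 3.88 to 4.2. The collagens Col1a1, Col1a2 and Col3a1 were below the level filter throughout. The part of signalling, RNA quality or a changed mix of cells in the members' levels was not tested.

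Calls of single genes came from a limma fit over all 15 arrays (Benjamini-Hochberg adjusted p under 0.05), and since the choice used all 3 group means they are counted and not read as evidence. Of the tested genes 0.354% were lower at 24 h than at 12 h, 28 in all, of which 16 are members. These calls rest on few arrays: 0 members were called without 12 h replicate 3, without 12 h replicate 4, with both averaged or left out, or without any 1 of 24 h replicates 1, 2, 4 and 5. Under these settings 6 tested genes were called lower without 24 h replicate 2 and 1 under each of the others. With the consecutive title codes as a block 2 tested genes were called lower, 1 of them a member, Mest. With the suffix as a block 162 were called, 59 of them members, and without 12 h replicate 5 239 were called, 88 of them members. Lower at 24 h than in undifferentiated cells were 19.4% of tested genes and 110 members. Changed at 12 h in either direction were 7.86% of tested genes and 0 members. Without 12 h replicates 3 and 4 they were 1920 of the 7909 tested genes and 23 of the 157 members. Every 24 h array lay below every 12 h array for 2.21% of tested genes and 39 members, and below every undifferentiated array for 16% and 98 members. Both held for 31 members, and the same count over all tested genes was not made. The 24 h minus 12 h differences of the members ran from -2.17 to -0.60 with a median of -0.77 (-0.06 over all tested genes), so that 30 genes were at least 2-fold lower at 24 h. Against undifferentiated cells the median was -0.83.

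Of the 157 members 91 were put into 8 roles, after their values were seen, and 9 of these are ligands or binding proteins that cells release. Hbegf, a heparin-binding ligand of the EGF receptor, had log2 levels of 4.10, 3.74, 3.73, 2.66 and 2.74 in undifferentiated cells, 2.10, 2.48, 5.61, 5.44 and 1.10 at 12 h, and 1.94, 1.95, 2.15, 0.95 and 0.81 at 24 h. Its 24 h arrays were all below the undifferentiated ones, but 12 h replicates 1 and 5 lay among the 24 h arrays, and replicates 3 and 4 at 12 h were above every other array. The difference was -1.79 ± 0.71 (SE, n = 5 per group) between 24 h and 12 h, and did not pass in the fit. Without 12 h replicates 3 and 4 it was -0.33. Kitl, the ligand of the receptor Kit, had levels of 3.61, 3.82, 4.39, 5.74 and 5.27 in undifferentiated cells, 4.02, 4.18, 5.69, 5.54 and 3.29 at 12 h, and 3.22, 3.11, 3.33, 2.23 and 2.58 at 24 h, and its 12 h replicate 5 overlapped the 24 h arrays. The difference was -1.65 ± 0.47, and -0.93 without 12 h replicates 3 and 4. Igfbp2, a secreted binder of insulin-like growth factors and 1 of the 5 brightest members, had levels of 9.12, 9.02, 8.23, 8.74 and 9.61 in undifferentiated cells, 8.75, 8.44, 8.77, 9.12 and 8.89 at 12 h, and 6.33, 7.32, 7.94, 7.56 and 6.89 at 24 h. Unlike Hbegf and Kitl it was even at 12 h, with an SD of 0.25 there, and its 24 h arrays were below all others. Its 24 h minus 12 h difference was -1.58 ± 0.29.

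Sema3a, a secreted guidance cue that repels axons, had levels of 1.96, 1.94, 2.35, 2.54 and 2.56 in undifferentiated cells, 2.41, 2.69, 2.81, 2.51 and 1.95 at 12 h, and 1.76, 1.43, 1.56, 1.63 and 1.49 at 24 h, with its 24 h arrays below all the rest. Jag1, a ligand of Notch receptors, was dim, with means of 0.78 in undifferentiated cells, 0.71 at 12 h and 0.07 at 24 h. Cx3cl1 and Cxcl14 are chemokines, Wnt7b is a Wnt ligand and Chrdl1 a secreted antagonist of BMPs, and their 24 h minus 12 h differences were -0.91, -1.02, -1.03 and -0.71. These last 3, like the other members named below outside the largest drops, the fixed lists and the brightest genes, were picked for their role after their values were seen.

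Receptors among the members included Fgfr1, a receptor of bFGF, one of the factors withdrawn. Its levels were 4.69, 4.98, 4.49, 4.94 and 4.71 in undifferentiated cells, 5.03, 4.66, 4.90, 5.05 and 4.07 at 12 h, and 4.21, 3.55, 4.23, 4.09 and 3.14 at 24 h. Of its 12 h arrays 4 were within the undifferentiated range or just above it, replicate 5 was below it, and the 24 h arrays were all below the undifferentiated ones. Fzd7, a Wnt receptor, had means of 1.86 in undifferentiated cells, 2.02 at 12 h and 1.07 at 24 h. Tnfrsf1a, the main receptor of tumour necrosis factor, had levels of 4.82, 5.18, 5.07, 4.84 and 5.27 in undifferentiated cells, 5.39, 4.74, 5.20, 5.24 and 4.39 at 12 h, and 4.17, 3.85, 4.31, 4.23 and 4.06 at 24 h, with no overlap of the 24 h arrays with the others. Ltbr, the lymphotoxin beta receptor and its neighbour at 35.8 kb on chromosome 6, had means of 2.96 in undifferentiated cells, 2.96 at 12 h and 2.28 at 24 h. The interleukin receptor chains Il10rb and Il1rap and the endosomal RNA sensor Tlr3 had differences of -0.75, -0.69 and -0.99. Lrig1, a membrane protein that dampens EGF receptor signalling and marks quiescent stem cells in several epithelia, had means of 7.22 in undifferentiated cells, 7.09 at 12 h and 6.12 at 24 h.

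Matrix and cell adhesion gave 15 and 9 members. Itgav, the alpha-v integrin chain that binds RGD-bearing matrix proteins, had levels of 7.16, 7.56, 7.33, 7.29 and 7.98 in undifferentiated cells, 7.56, 6.83, 7.55, 7.68 and 6.84 at 12 h, and 6.00, 6.18, 6.54, 6.16 and 6.30 at 24 h. Its 24 h arrays were below all others, and the difference from 12 h was -1.06 ± 0.20. Col5a3 and Col5a2, chains of type V collagen, were lower at 24 h as well; Col5a3 differed from 12 h by -1.22 and Col5a2 had means of 4.33 in undifferentiated cells, 4.55 at 12 h and 3.54 at 24 h. The laminin chains Lamc1 and Lama5 had differences of -0.64 and -0.78. Chst2, which adds sulphate to N-acetylglucosamine in carbohydrate chains, had levels of 5.01, 4.56, 4.54, 4.97 and 4.76 in undifferentiated cells, 4.18, 4.32, 5.58, 5.85 and 3.64 at 12 h, and 3.12, 3.38, 3.78, 3.34 and 2.49 at 24 h. Its 12 h replicate 5 was inside the 24 h range and the other 12 h arrays were not. Without 12 h replicates 3 and 4 its difference of -1.49 was -0.83, and that of Lamc1 was -0.18.

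Enzymes that cut or build matrix were Mmp14, a membrane-bound metalloproteinase (-0.68), Adamts1, a secreted one (-0.93), Htra1, a serine protease (-0.84), Plod3, a lysyl hydroxylase of collagen (-0.63), and Ext1, a heparan sulphate polymerase (-0.79). Adamts1 was uneven at 24 h (SE of its difference 0.58): replicate 2, at 3.89, was above all undifferentiated arrays, and the others ran from 1.16 to 1.75. Cadherins Cdh4, Cdh13 and Cdh10 had differences of -0.99, -0.95 and -0.63, the junctional molecules Jam2 and Nectin3 of -0.96 and -0.73, and Chl1, an L1-family molecule of neurite growth, of -0.96. In the fixed list of integrins and matrix genes 10 of 19 tested genes were lower at 24 h than at 12 h by 0.6 or more, members Itgav and Lamc1 among them, compared with 5.07% of all tested genes. The median of that list was -0.64 and 1 of its genes passed. Against undifferentiated cells 6 of the 19 were lower at 24 h and 1 higher, and at 12 h 3 were higher and 0 lower.

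Lgals1, galectin 1, a secreted lectin of the stem cell niche and the brightest member, had levels of 8.55, 8.86, 8.17, 9.64 and 10.46 in undifferentiated cells, 8.46, 8.63, 9.33, 9.60 and 9.34 at 12 h, and 7.15, 8.20, 8.44, 8.73 and 8.30 at 24 h. Its groups overlapped, and undifferentiated replicate 3 was below 4 of the 24 h arrays. Triobp, an actin-bundling protein whose gene lies 17.3 kb from Lgals1 on chromosome 15, had means of 3.36 in undifferentiated cells, 3.15 at 12 h and 1.89 at 24 h. Other genes of the actin cortex were Msn, moesin, which ties membrane proteins to actin (-1.19), Vasp, which extends filaments (-0.81), the scaffolds Iqgap1 and Iqgap2 (-0.77 and -0.67), the small GTPases Rhoj and Rhoc (-1.11 and -0.63) and the light chain Myl12a (-0.66). Within the suffixes the 13 genes of this role had 12 h minus undifferentiated medians of -0.39, 0.63 and -0.84 for A, B and C. On the fixed list of actin cytoskeleton genes and SRF and YAP targets, 0 of 20 tested genes were members. Against undifferentiated cells 5 of the 20 were higher and 0 lower at 12 h, and 5 higher and 3 lower at 24 h. The list median was 0.68 for 12 h minus undifferentiated and -0.50 for 24 h minus 12 h, with 7 genes down by 0.6 or more.

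Anxa3, a calcium-dependent membrane-binding annexin, had the largest difference of the 157. Its log2 levels were 3.91, 1.26, 1.72, 2.94 and 3.74 in undifferentiated cells, 0.65, 1.40, 4.60, 4.31 and 1.41 at 12 h, and -0.03, 0.42, 0.96, 0.15 and 0.00 at 24 h. The 24 h arrays were low throughout, while the undifferentiated arrays and the 12 h arrays each spread over more than 2 units, and 12 h replicate 1 was below 24 h replicate 3. S100a10, the S100 protein that pairs with annexin A2, had levels of 6.04, 6.01, 5.71, 7.02 and 7.57 in undifferentiated cells, 4.71, 6.27, 7.72, 7.74 and 6.10 at 12 h, and 4.41, 4.32, 4.88, 5.61 and 4.81 at 24 h, again highest in 12 h replicates 3 and 4. Their differences from 12 h were -2.17 ± 0.70 and -1.70 ± 0.50, and neither passed. Without 12 h replicates 3 and 4 they were -0.85 and -0.89. Plp2, proteolipid protein 2, had means of 2.75 in undifferentiated cells, 2.94 at 12 h and 1.73 at 24 h.

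Mest, an imprinted gene expressed from the paternal copy and abundant in embryonic tissue, had levels of 7.17, 7.08, 7.33, 7.65 and 7.16 in undifferentiated cells, 6.54, 6.95, 8.14, 8.20 and 6.79 at 12 h, and 4.85, 5.92, 6.49, 5.25 and 5.06 at 24 h. The 24 h arrays were below all others. The difference from 12 h was -1.81 ± 0.34, a 3.5-fold decrease, and Mest is among the 16 that passed, as are Pcp4l1, Igfbp2, Col5a3, Itgav and Sema3a. Pcp4l1, which encodes a small relative of the calmodulin regulator Pcp4, had levels of 3.02, 3.76, 2.32, 4.30 and 4.80 in undifferentiated cells, 3.84, 3.90, 3.93, 3.83 and 3.39 at 12 h, and 2.55, 1.43, 1.99, 2.44 and 1.80 at 24 h. All its 12 h arrays were above all its 24 h arrays. Its 12 h levels were close together but for replicate 5, and 24 h overlapped undifferentiated cells.

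Ccnd2, cyclin D2, which drives entry into the cell cycle, had levels of 8.67, 8.33, 7.55, 8.07 and 9.48 in undifferentiated cells, 6.65, 8.34, 8.66, 8.85 and 8.44 at 12 h, and 5.57, 7.51, 7.38, 7.08 and 7.11 at 24 h. Replicate 1 was the lowest array at 12 h and also at 24 h, both of suffix A. The 12 h minus undifferentiated difference of Ccnd2 was -0.23 in the chosen probe set. It ran from -0.58 to -0.18 in its other probe sets, so that some were already lower at 12 h by more than the limit of 0.3. Hmga2, a chromatin protein that sustains self-renewal of fetal neural stem cells in the mouse, had levels of 1.05, 1.17, 1.16, 2.07 and 1.95 in undifferentiated cells, 0.48, 0.60, 3.11, 2.85 and 0.27 at 12 h, and 0.20, 0.43, 0.29, 0.24 and 0.01 at 24 h. At 12 h replicates 3 and 4 were above all undifferentiated arrays and the other 3 below them all, so that its 12 h mean matched no array. Its 24 h minus 12 h difference was -1.23 ± 0.47, and -0.22 without replicates 3 and 4. Of 23 replication genes and 22 mitosis genes tested from the fixed lists 0 were members; at 12 h 18 and 9 of them were lower, and at 24 h against undifferentiated cells all 23 and all 22. Per2, a repressor of the circadian clock, and Foxc1 and Mef2c, transcription factors, had differences of -0.79, -0.78 and -0.76.

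**Figure D4:**
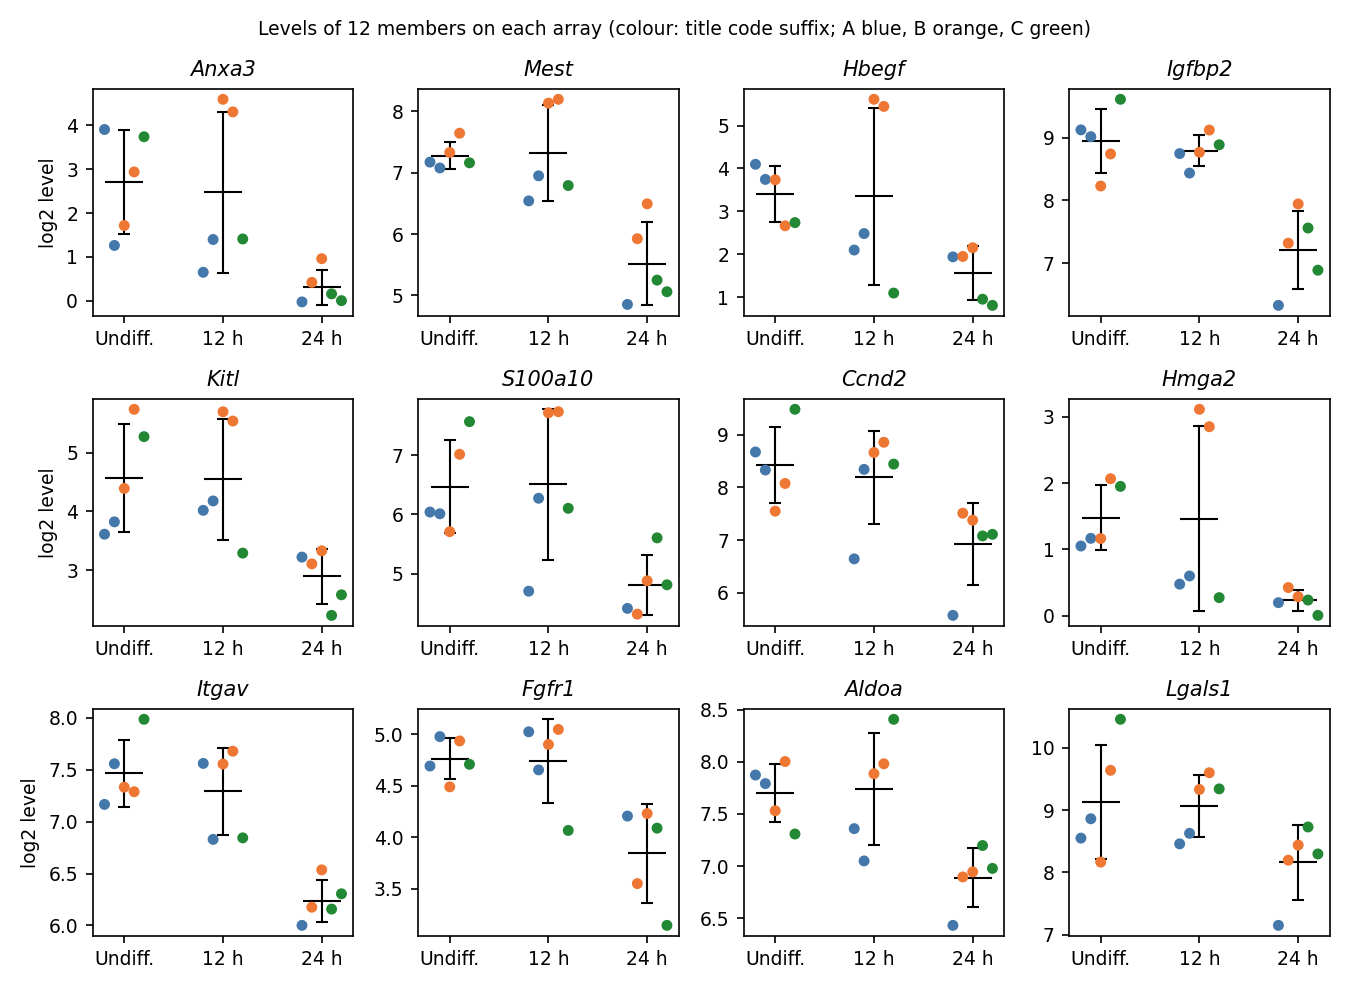
Log2 levels of 12 members on each array for undifferentiated cells, 12 h and 24 h, with black bars for the mean and SD of 5 arrays and colours for the title code suffix. In Anxa3, Hbegf, Hmga2 and S100a10 the 2 orange 12 h arrays of suffix B stand above the other 12 h arrays, whereas Igfbp2 is even at 12 h (SD 0.25) and lower on every 24 h array.

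Metabolic members came from several routes. Aldoa, an aldolase of glycolysis, had levels of 7.87, 7.79, 7.53, 8.00 and 7.31 in undifferentiated cells, 7.36, 7.05, 7.89, 7.98 and 8.41 at 12 h, and 6.43, 6.90, 6.94, 7.20 and 6.98 at 24 h, and its other probe sets differed less, by -0.38 to -0.21 against -0.85 for the brightest. Pfkp, a phosphofructokinase, had means of 3.74 in undifferentiated cells, 3.91 at 12 h and 2.92 at 24 h, and its difference of -0.99 was -0.15 without 12 h replicates 3 and 4. Of 19 genes of glycolysis and the hypoxia response on the fixed list these 2 were members, and the median difference of the list was -0.16. Srebf2, the activator of cholesterol synthesis genes, had means of 4.36 in undifferentiated cells, 4.25 at 12 h and 3.53 at 24 h. Of 19 genes on the fixed cholesterol list it was the only member, and 10 of the list were lower at 24 h than in undifferentiated cells, with a list median of -0.38 already at 12 h.

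Asns, whose promoter is printed above, had levels of 5.45, 4.16, 4.76, 4.69 and 4.67 in undifferentiated cells, 4.19, 4.22, 5.20, 5.06 and 4.53 at 12 h, and 3.56, 4.19, 4.03, 3.85 and 3.86 at 24 h. Its 24 h arrays were below its 12 h arrays, though the closest pair was equal to 2 decimals, the difference of -0.74 was -0.42 without 12 h replicates 3 and 4, and 24 h replicate 2 was just above undifferentiated replicate 2. Sardh and Pipox, a pair of enzymes that each oxidise sarcosine, had differences of -0.82 and -0.66, and Acsbg1, an acyl-CoA synthetase, of -0.68. Enzymes that detoxify foreign or oxidised compounds were Ephx1, a microsomal epoxide hydrolase (-1.17), Aox1, aldehyde oxidase (-1.17), Akr1c18 and Akr1b10, aldo-keto reductases (-1.15 and -0.62), and Ptgr1, prostaglandin reductase (-0.78), joined by Abcg2, the drug exporter used to mark side-population stem cells (-1.07).

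In the secretory route, Pdia6 and Pdia5 are disulphide isomerases, Rpn2 and Magt1 belong to the oligosaccharyltransferase, Alg9 builds its lipid-linked donor, and Galnt4 and Galnt7 begin O-linked chains. Their differences were -0.62, -0.79, -0.64, -0.81, -0.67, -0.74 and -0.80. Of 19 ER chaperones on the fixed list 1, Pdia6, was a member, with means of 6.09 in undifferentiated cells, 6.00 at 12 h and 5.38 at 24 h. The 10 members of this role had 12 h minus undifferentiated medians of -0.04, 0.22 and -0.49 within A, B and C, in size below those of the actin genes; that difference was not tested.

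Cacng5, a subunit that modulates AMPA receptors, had means of 2.96 in undifferentiated cells, 2.79 at 12 h and 1.27 at 24 h. Tmem176a and Tmem176b, 4-pass membrane proteins of intracellular compartments whose genes overlap on chromosome 6, had differences of -1.30 and -0.64. Tmem176a had levels of 5.61, 5.76, 5.76, 5.80 and 6.89 in undifferentiated cells, 7.19, 5.78, 5.40, 5.55 and 5.26 at 12 h, and 4.33, 4.42, 4.83, 4.84 and 4.28 at 24 h, with 12 h replicate 1 and undifferentiated replicate 5 apart from the rest of their groups and every 24 h array below all others. Its other probe set had a 12 h minus undifferentiated difference of -0.48, past the limit, against -0.13 for the chosen one. Pcp4l1 and Tomm40l lie 21.5 kb apart on chromosome 1, and Cend1 and Chid1 63.6 kb apart on chromosome 7; members came from 20 chromosomes, at most 14 from 1 of them.

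Other probe sets of the same genes were read as well. Their differences had no part in the choice, but they share its genes, RNA and arrays, so a drop in them is not separate evidence. Of 145 such probe sets, 87 were above the level filter, in 65 members. All 87 were lower at 24 h than at 12 h, 49 by at least 0.6, and 41 met both limits. The same counts over other probe sets of all tested genes were not made. The median difference of the 87 was -0.64, against -0.76 for the chosen probe sets of those members. Besides Ccnd2 and Tmem176a, other genes had a further probe set past the 0.3 limit at 12 h. They included Col5a2 (0.36), Jam2 (-0.37), Cxcl14 (-0.36) and Galnt7 (-0.33), so their flat 12 h mean depends on the probe set. Below the filter 4 further genes met both limits, as did 8 of 1019 probe sets with several or no symbols above it. At 24 h the mean of 20 members lay below the filter level.

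The limits cut through a continuum. Just inside the limit on the later drop were Aak1, Calu and Lynx1, at -0.601, -0.601 and -0.602, and just outside it Cdk5rap2, Ghdc and Etl4, at -0.599, -0.597 and -0.596. At 12 h Rasa2 (0.297), Cx3cl1 (-0.291) and Lama5 (-0.288) were just inside, and Sema4b (-0.300), Nr2c2ap (-0.307) and Cybrd1 (-0.309) just outside. Cybrd1, a ferric reductase of the plasma membrane, had a 24 h minus 12 h difference of -1.53, larger than that of all but 7 members.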

How the data were processed

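The authors deposited a single processed value for each probe set on each array, made with MAS5 per the submitters' processing notes, at settings not given in the sources used. The deposited values were read as log10, because the spike-ins' slope against the log10 of their concentration was 1.07 ± 0.0655 (SD, 15 arrays), and were multiplied by 3.3219 to give log2 values with no further normalisation or pseudocount. Array medians ran from 0.287 to 0.453 (log10), and precision is limited by how many arrays there are. Of 22626 probe sets other than controls, 20380 had 1 symbol in the platform annotation, 691 several and 1555 none here. Gene coordinates and promoters are RefSeq's, build GRCm38.p6, and all 157 members matched.

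A limma fit (3.58.1, R 4.3.3) took all 15 arrays, with group means, a variance trend and Benjamini-Hochberg adjustment over 7909 genes, called at adjusted p under 0.05 and tested on simulated data. Its p-values and SE reflect the spread among the samples at hand, perhaps technical alone. The members, lists and alternatives were chosen with earlier results of these data known. Named were the 15 members with the largest drop, those on 39 fixed lists, the 5 brightest and the 3 nearest each limit on either side. Others are said to be chosen after their values were seen. Alternatives changed labels, scaling, pseudocount, filter, probe set choice, suffix block, a block of consecutive title codes, samples, variance model and the limits of the choice. Motif shares were counted with Python 3.11.15.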

Additional observations from a re-analysis of the deposited data

Results flagged for a closer look

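Among 123 groups of 5 arrays examined for the named genes, 6 held an array far from the other 4, where chance flags about 1 in 20 groups, which is as many. Pcp4l1 had a log2 level of 3.39 in 12 h replicate 5, with the others from 3.83 to 3.93. Tmem176a had 6.89 in undifferentiated replicate 5 (others from 5.61 to 5.80) and 7.19 in 12 h replicate 1 (others from 5.26 to 5.78). Ccnd2 had 6.65 in 12 h replicate 1 (others from 8.34 to 8.85) and 5.57 in 24 h replicate 1 (others from 7.08 to 7.51), both arrays of suffix A. Srebf2 had 3.48 in undifferentiated replicate 5, with the others from 4.43 to 4.74.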

How the results depend on the processing

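The number of genes that met the choice was 157 and fell to 15 with groups taken from the array file codes (2 shared), 93 with each array centred on its median, 101 with a filter at the 60th percentile, 99 with 12 h replicates 3 and 4 averaged, 62 with both left out (42 shared) and 65 with a drop of at least 0.8. With single arrays left out it ran from 96 (without 12 h replicate 3) to 249 (without 12 h replicate 5), and from 84 to 156 of the 157 were shared. The members' median 24 h minus 12 h difference of -0.77 became -0.13 with the file codes and ran from -0.89 to -0.66 with single arrays left out. Their median 12 h minus undifferentiated difference lay from -0.15 to 0.12 with single arrays left out. It was -0.21 with the file codes and -0.31 without 12 h replicates 3 and 4, past the 0.3 limit of the choice. Under every setting run it moved by less than the SD between arrays, 0.31. That SD includes the wide spread of the 12 h arrays (SD 0.42), so it cannot show that the 12 h level was steady. Of the 40 named genes all those measured were lower at 24 h than at 12 h under each planned setting except the file codes (29 of 40). These genes were named from differences on the same arrays, so their sign was nearly fixed by the choice and is not separate evidence. Without 12 h replicates 3 and 4 the difference was also smaller by over 1.5 times in Triobp (-0.50), Plp2 (-0.70), Fzd7 (-0.46), Per2 (-0.43), Jag1 (-0.25), Pdia6 (-0.39), Aak1 (-0.36), Cx3cl1 (-0.28), Lama5 (-0.45) and, just outside the limits, Cdk5rap2 (-0.28), Etl4 (-0.36), Sema4b (-0.49) and Nr2c2ap (-0.17). With 12 h replicates 3, 4 and 5 all left out, a setting chosen after seeing the data, 39 of the 40 were lower at 24 h and 127 genes met the choice (61 shared).

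The 28 limma calls of a lower level at 24 h than at 12 h became 0 with the file codes, 7 with centring, 18 with no filter, 16 with probe sets averaged, 162 with the suffix as a block (59 members), 1 with replicates 3 and 4 averaged, 1 with both left out, 2 with only these 2 groups in the fit and 5 without 12 h replicates 3, 4 and 5. They ran from 1 (without 12 h replicate 3, 12 h replicate 4, or 24 h replicates 1, 4 or 5) to 239 (without 12 h replicate 5), with 8 and 16 without undifferentiated replicates 2 and 4, 49 and 15 without 12 h replicates 1 and 2, and 6 and 8 without 24 h replicates 2 and 3. At an unadjusted p under 0.05 there were 819. The 1533 genes lower at 24 h than in undifferentiated cells became 0 with the file codes and 612 without suffix C, and ran from 1211 to 1694 with single arrays left out. The 622 changed at 12 h became 0 with the file codes, 939 with quantile normalisation, 1476 with the block, 70 without suffix C, 1920 with replicates 3 and 4 left out, 404 with 2 groups in the fit and 1288 without 12 h replicates 3, 4 and 5, and ran from 174 (without 12 h replicate 2) to 1005 (without 12 h replicate 3), with 336, 248 and 230 without undifferentiated replicates 2, 4 and 5 and 209 without 12 h replicate 5. Scaling shifted the balance of calls: at 24 h against undifferentiated cells 1003 genes were higher and 1533 lower, against 1590 and 1302 with quantile normalisation and 1431 and 1110 with centring, and at 24 h against 12 h 5 and 28, 14 and 36, and 10 and 7. Centring moved the median 24 h minus 12 h difference of all tested genes to 0.08, with -0.06 as deposited, and the members' median to -0.63. The cause of these changes was not tested. The labels give no shared replicate numbers, but a replicate block of arrays with consecutive title codes, added after seeing the data, gave 2 lower calls at 24 h against 12 h (1 member), 1866 against undifferentiated cells and 1169 changed at 12 h, with 159 genes meeting the choice (138 shared) and a members' median of -0.79. Deviations from the group means correlated from -0.09 to 0.54 over the 13 pairs within such a set (median 0.33, 12 above 0.1) and from -0.22 to 0.53 over 12 pairs of the same suffix and other sets (median 0.34), so that the sets cannot be told apart from the suffixes as a pairing. Over 50 pairs of other suffixes the correlations ran from -0.60 to 0.44 (median -0.16, 5 above 0.1). Arrays of the same suffix thus shared deviations, while the main fit, without a block, took the arrays as independent.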
